A study of Mus musculus with 9 samples.

Results

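The testes of mice that carried 1 copy of the R264W change in Piwil4 were compared with those of wild-type mice. Every gene of the deposited table entered the comparison, which used 6 of the 9 libraries of the series, 3 from Piwil4 WT/R264W and 3 from wild-type (WT) testes. The remaining 3 libraries came from Piwil4 R264W/R264W testes. All were whole testes taken at 3 weeks of age, and mRNA libraries were read on an Illumina sequencer. The knock-in was made with CRISPR-Cas9 in C57BL/6 zygotes, and the number of founder lines is not given in the sources used here. Of the 22337 genes in the table, 15413 had enough reads to be tested. The libraries held 20.2 to 23 M estimated counts in WT and 18 to 22.2 M in WT/R264W testes. The replicates are separate samples by their labels, which do not say whether each came from another animal, so the tests measure only the spread between these samples.

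PIWIL4, also called MIWI2, is a nuclear PIWI protein that is guided by piRNAs to young transposons in fetal male germ cells, where DNA methylation then silences them. Male mice that lack it are known to derepress LINE-1 elements and to arrest in meiosis. In mice the germ cells of the first wave of spermatogenesis advance in near synchrony after birth, so that at 3 weeks the most advanced cells are turning from pachytene spermatocytes into round spermatids. A difference of a day in development therefore changes the level of many spermatid transcripts in whole testis RNA. In bulk tissue, fewer cells of a type and less RNA per cell cannot be told apart.

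The libraries of both genotypes were spread along the first wave. A stage score was set for each library as the mean log2 CPM (counts scaled to the size of the library, per M) of 20 genes of round spermatids. It was 5.70, 3.12 and 2.21 in WT replicates 1, 2 and 3, and 4.87, 4.13 and 1.67 in WT/R264W replicates 1, 2 and 3. The first replicate of each genotype was the most advanced and the third the least, and the ranges overlapped. The mean was 3.68 ± 1.81 (SD, n = 3) in WT and 3.56 ± 1.67 (SD, n = 3) in WT/R264W, a difference of -0.12 (p = 1.0, exact two-sided permutation test). Genes of elongating spermatids were spread wider, from 0.19 to 5.77 in WT and from -0.31 to 4.74 in WT/R264W. Pachytene and diplotene genes were nearly level, from 7.99 to 8.38 in WT and from 7.93 to 8.17 in WT/R264W. With 3 testes a side the exact test cannot give a p below 0.1.

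**Figure D1:**
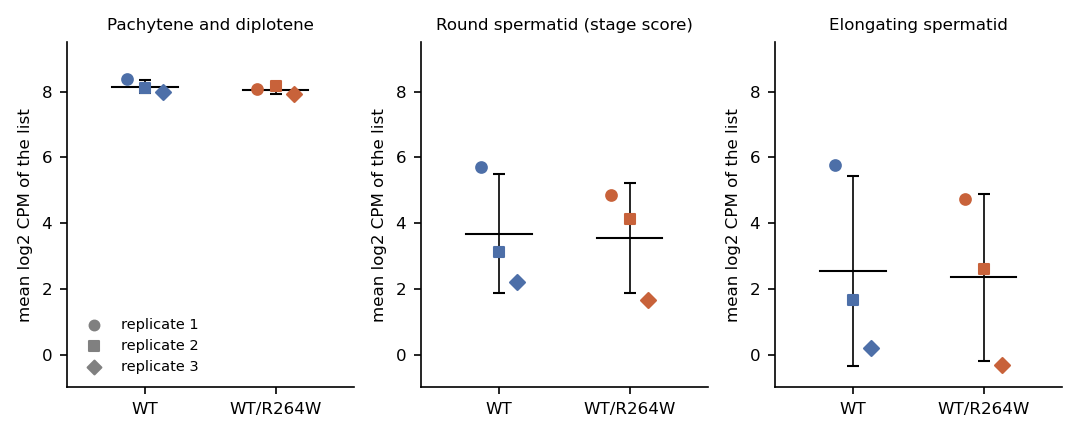
Mean log2 CPM of marker lists for pachytene and diplotene spermatocytes, round spermatids and elongating spermatids in each library (points, shaped by replicate), with the mean and SD of each genotype (bars). The round spermatid score runs from 2.21 to 5.70 in WT and from 1.67 to 4.87 in WT/R264W, and the pachytene score moves far less.

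Because libraries of a genotype differed this much, 2 fits of the same 6 libraries were made with edgeR's quasi-likelihood test, one without and one with the stage score as a term. No gene had an adjusted p under 0.05 in either fit. The lowest adjusted p was 1.0 without the stage term and 0.999 with it. Without the stage term, 171 genes (1.11%) had an unadjusted p under 0.05. With it, 370 genes (2.40%) did, and the median standard error of the log2 fold change went from 0.17 to 0.13. DESeq2 gave 0 genes at an adjusted p under 0.05 in either fit, with 108 and 220 genes at an unadjusted p under 0.05. The genes described below were therefore picked at an unadjusted threshold, and their values stand as descriptions of these 6 libraries.

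Without the stage term, 11 genes (0.0714%) were higher and 25 (0.162%) lower in WT/R264W testes by over 2-fold at an unadjusted p under 0.05, called both limits here. With the stage term, 19 (0.123%) were higher and 32 (0.208%) lower. With limma on log2(FPKM + 0.1) values, 10 were higher and 5 lower without and 17 higher and 9 lower with the stage term. That test kept only genes with a mean of at least 0.5 FPKM, so its balance covers another set of genes. Lower genes such as Gpr182 (mean 0.277 FPKM in WT and 0.107 in WT/R264W) and Tbx15 (0.207 and 0.06) were not in it. The 2 edgeR fits shared 33 of their genes past both limits, which are 33 of 36 without and 33 of 51 with the stage term, all with the same sign in both. Among the 18 genes that were past both limits only with the stage term, 3 had the opposite sign without it. In 348 tested genes (2.26%) every WT/R264W testis was above every WT testis, and in 469 (3.04%) every one was below. Of the 36 genes past both limits without the stage term, 29 did not overlap between the genotypes. With any 1 library dropped, 3 of the 36 genes without and 5 of the 51 with the stage term stayed past both limits in each of the 6 fits. The 36 were rarely read genes, with a median mean level of 1.01 CPM against 21.6 CPM over all genes tested.

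**Figure D2:**
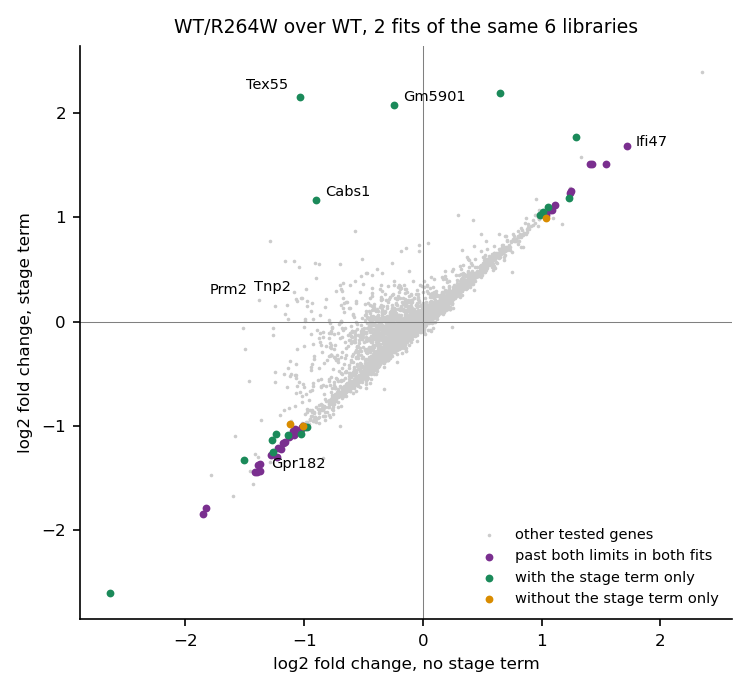
Log2 fold change of WT/R264W over WT for each tested gene without (x axis) and with (y axis) the stage term, with genes past an unadjusted p of 0.05 and 2-fold in colour. Most coloured genes lie on the diagonal, whereas the spermatid genes Tex55, Gm5901 and Cabs1 lie at negative values on the x axis and positive values on the y axis.

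Immunity-related GTPases and guanylate-binding proteins are enzymes that cells make in response to interferon and that attack the membranes around intracellular parasites. The interferon-inducible GTPase with the largest fold change in WT/R264W testes was Ifi47 (ENSMUSG00000078920, chromosome 11), an immunity-related GTPase. Ifi47 was read at 0.372, 0.542 and 0.485 CPM in the WT testes and at 0.988, 1.67 and 2.02 CPM in the WT/R264W testes. Every WT/R264W testis was above every WT testis. Its log2 fold change was 1.72 (SE 0.38, adjusted p = 1.0) without and 1.68 (SE 0.39, adjusted p = 0.999) with the stage term. Leaving out any 1 of the 6 libraries kept Ifi47 past both limits, with log2 fold changes of 1.49 to 1.97. These are small numbers of reads, 8 to 11 in a WT and 22 to 38 in a WT/R264W library. In the annotation Ifi47 overlaps Olfr56 on its own strand and Gm12188 on the other, and reads they share cannot be assigned.

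Of 24 interferon-inducible GTPases in the table, 16 were tested. Their median log2 fold change was 0.52 without and 0.46 with the stage term, where that of all genes was -0.02 and -0.01. In 14 of the 16 it was above 0 without the stage term, and in 15 with it, against 44.9% and 47.7% of all genes. The 16 include Irgc1, which spermatids make and which had -0.27 without and 0.08 with the stage term. Ifi47 and Irgm2 had an unadjusted p under 0.05 in both fits, on the higher side, where 1.11% of all genes had one in either direction without and 2.40% with the stage term. Irgm2, an immunity-related GTPase of the regulatory subclass, was read at 2.05, 2.36 and 2.86 CPM in WT and at 3.23, 3.34 and 4.89 CPM in those of WT/R264W. Its log2 fold change was 0.65 (SE 0.25, adjusted p = 1.0) without the stage term, and in the annotation it overlaps Igtp on its strand. The groups did not overlap in 5 of the 16, each with WT/R264W above, against 2.26% of all genes with WT/R264W above.

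The other non-overlapping members were Irgm1, Tgtp1 and Gbp6. Irgm1, which regulates the effector GTPases of its family, had 2.09, 2.27 and 2.57 CPM in WT and 2.74, 3.28 and 3.51 CPM in WT/R264W testes. Tgtp1, an effector GTPase first described in T cells, had 0.604, 0.887 and 0.873 CPM in WT and 1.80, 0.946 and 1.43 CPM in WT/R264W testes. Gbp6, a guanylate-binding protein, had 2.32, 2.12 and 2.18 CPM in WT and 2.92, 2.67 and 3.35 CPM in WT/R264W testes. Their log2 fold changes were 0.45, 0.82 and 0.43, and none had an unadjusted p under 0.05. Gbp4 and Iigp1, with 0.84 and 0.75, overlapped between the genotypes, since only WT/R264W replicate 3 stood high, at 1.91 and 7.01 CPM. Without that library the log2 fold change of Gbp4 was 0.04 and that of Iigp1 was -0.16. Irgc1, a member of the family that spermatids make, followed the stage, with 246, 43.6 and 19.9 CPM in WT and 150, 93.7 and 13.6 CPM in WT/R264W testes.

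Promoters of this family are shown because its members were mostly on 1 side. Interferon gamma acts at the GAS motif, TTCNNNGAA, and type I interferon at the ISRE, searched as GAAANNGAAA. Both strands were searched from 250 bases before to 50 after each RefSeq start, in the GRCm38.p6 table. GAS matches occurred in 8.30% and ISRE matches in 3.44% of all 32851 promoters there. Of the 16 tested members 10 had a promoter in that table, of which 5 held the GAS and 8 the ISRE letters. The promoter of Ifi47 (chr11:49076337-49076636, plus strand) holds neither. Those of Irgm2 (chr11:58214727-58215026, plus strand) and Tgtp1 (chr11:48992197-48992496, minus strand) hold both, set 2 bases apart and printed in capitals. The sequences run 5′ to 3′ on the gene's strand.
Ifi47: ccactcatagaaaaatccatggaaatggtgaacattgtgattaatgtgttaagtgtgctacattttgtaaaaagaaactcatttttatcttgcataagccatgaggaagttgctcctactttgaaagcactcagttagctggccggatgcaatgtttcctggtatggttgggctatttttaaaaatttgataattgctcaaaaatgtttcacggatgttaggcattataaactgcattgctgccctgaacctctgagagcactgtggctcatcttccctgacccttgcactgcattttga
Irgm2: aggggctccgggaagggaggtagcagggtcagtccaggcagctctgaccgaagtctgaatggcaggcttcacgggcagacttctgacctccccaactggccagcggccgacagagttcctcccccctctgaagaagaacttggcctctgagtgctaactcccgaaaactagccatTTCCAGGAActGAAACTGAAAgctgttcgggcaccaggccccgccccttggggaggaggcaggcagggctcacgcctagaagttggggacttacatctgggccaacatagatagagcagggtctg
Tgtp1: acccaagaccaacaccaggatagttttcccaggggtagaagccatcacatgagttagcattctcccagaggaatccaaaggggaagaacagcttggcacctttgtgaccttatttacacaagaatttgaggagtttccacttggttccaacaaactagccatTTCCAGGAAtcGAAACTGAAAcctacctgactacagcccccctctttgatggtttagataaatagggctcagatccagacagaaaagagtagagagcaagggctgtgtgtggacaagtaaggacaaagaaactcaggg
Igtp, a neighbour of Irgm2 on chromosome 11, carries the same arrangement 45 bases before its start.
Igtp: TTCTAGGAActGAAACTGAAA
A match of letters describes the sequence alone. Igtp had 1.12, 1.72 and 1.5 CPM in WT and 1.84, 1.39 and 3.29 CPM in WT/R264W testes, which overlap.

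Genes of the wider interferon response had a median near 0. Of the 41 listed genes, 29 were tested, with a median log2 fold change of 0.06, 17 above and 12 below 0. Every WT/R264W testis was below every WT testis in 3 of the 29 and above in 1, against 3.04% and 2.26% of all genes. Of these only Oasl1, an oligoadenylate synthetase-like protein, had an unadjusted p under 0.05, and it was on the lower side at 0.790, 0.739 and 0.534 CPM in WT and 0.359, 0.278 and 0.425 CPM in those of WT/R264W. Its log2 fold change was -0.95 (SE 0.39, adjusted p = 1.0), and it had an unadjusted p under 0.05 only without the stage term. Irf1, an early target of interferon gamma, had a log2 fold change of 0.29. For 9 interferon receptors and kinases tested the median was 0.06, and 6 of the 16 listed genes, the interferons among them, were at 0 in all 6 libraries.

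MHC class II molecules present peptides on dendritic cells, macrophages and B cells, and CD74 is the chain that guards their groove. Of the 11 listed genes, 6 were tested, and their median log2 fold change was 0.77 without and 0.76 with the stage term. Cd74 and H2-Eb1 had an unadjusted p under 0.05 without the stage term, and H2-Aa and H2-Ab1 joined them with it, each on the higher side. These were 2 and then 4 of the 6, against 1.11% and 2.40% of all genes in either direction. Cd74 was read at 1.53, 3.30 and 3.30 CPM in WT and at 5.88, 8.23 and 3.03 CPM in WT/R264W testes. H2-Eb1, a beta chain, was read at 0.604, 0.985 and 0.679 CPM in WT and at 2.02, 1.84 and 0.797 CPM in WT/R264W testes. WT/R264W replicates 1 and 2 were above every WT testis in both genes, while replicate 3 lay among them.

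H2-Aa, an alpha chain, had the same order, with 2.61 and 3.06 CPM in WT/R264W replicates 1 and 2 but 0.850 CPM in replicate 3, against 0.418, 1.33 and 1.02 CPM in WT. The log2 fold changes were 1.07 (SE 0.45) for Cd74, 1.03 (SE 0.43) for H2-Eb1 and 1.23 (SE 0.59) for H2-Aa without the stage term. H2-Ab1, another beta chain, had 0.52 (SE 0.23). Without WT replicate 1 and with the stage term they became 0.39 for Cd74, 0.40 for H2-Eb1 and 0.24 for H2-Aa. H2-DMa and H2-DMb1, which load the peptides, had -0.13 and -0.10. The summed class II level was 13.8, 16.1 and 15 CPM in WT and 22.2, 26.6 and 16 CPM in WT/R264W testes (p = 0.2, exact two-sided permutation test).

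Markers of macrophages had a median near 0. All 15 were tested, their median log2 fold change was -0.01, and none had an unadjusted p under 0.05. Their summed level was 159 to 173 CPM in WT and 161 to 170 CPM in WT/R264W testes. MHC class I presentation genes had 13 of 16 values above 0 and a median of 0.20, with Psmb9, an immunoproteasome subunit, at 0.79, and none had an unadjusted p under 0.05. The replicate with the highest GTPase levels was WT/R264W replicate 3 for Ifi47, Irgm2 and Gbp6, and this was the replicate with the lowest class II level of its genotype.

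**Figure D3:**
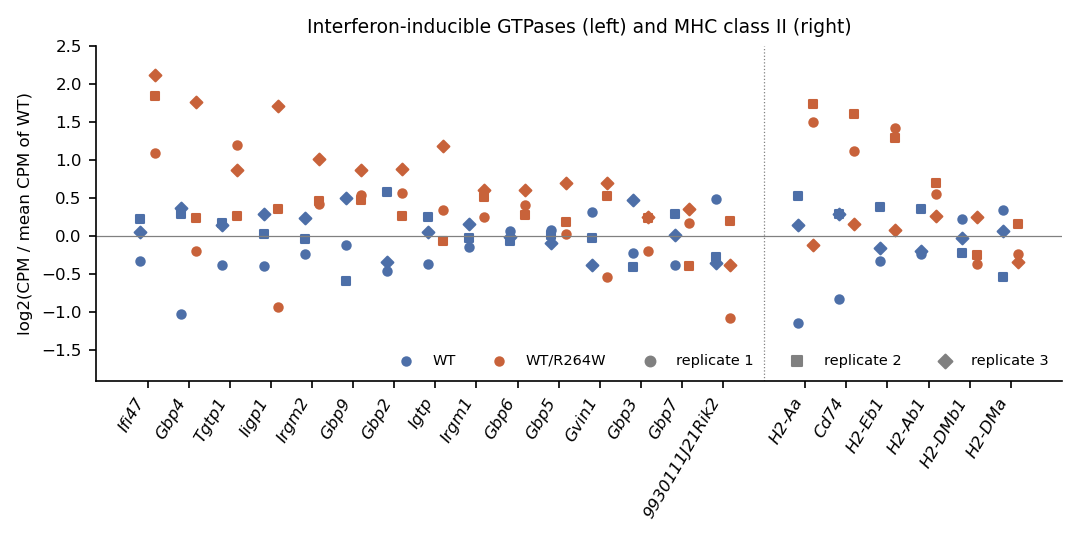
Log2 of CPM over the mean CPM of WT for 15 interferon-inducible GTPases (left of the dotted line, without Irgc1) and 6 MHC class II genes (right), 1 point per library, shaped by replicate. Ifi47, Tgtp1, Irgm2, Irgm1 and Gbp6 do not overlap between the genotypes, and for Cd74, H2-Aa, H2-Eb1 and H2-Ab1 WT/R264W replicate 3 lies among the WT testes.

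Other genes on the higher side were a hormone, an actin-severing protein, an ion channel relative and developmental transcription factors. Stc1, which encodes the glycoprotein hormone stanniocalcin 1, was read at 1.39, 5.81 and 5.05 CPM in WT and at 14.2, 6.29 and 12.1 CPM in WT/R264W testes. The genotypes did not overlap, but WT/R264W replicate 2 lay close above WT replicate 2. Its log2 fold change was 1.41 (SE 0.55, adjusted p = 1.0) without and 1.51 (SE 0.38, adjusted p = 0.999) with the stage term. With the stage term it was 0.99 without WT replicate 1 and 0.88 without WT/R264W replicate 1, and no longer past both limits. Without the stage term it stayed past both limits in 2 of 6 fits that left out a library, those without replicate 2 of either genotype, at 1.0 to 1.77 over the 6.

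Scin encodes scinderin, which severs actin filaments, and was read at 0.279, 0.345 and 0.534 CPM in WT and at 0.988, 0.834 and 0.690 CPM in WT/R264W testes. Isl1, a LIM homeodomain factor, was read at 0.465, 0.493 and 0.340 CPM in WT and at 0.629, 1.11 and 0.956 CPM in WT/R264W testes. Hoxb7, a homeobox factor of trunk patterning, was read at 0.418, 0.443 and 0.340 CPM in WT and at 0.584, 1.0 and 1.01 CPM in WT/R264W testes. The genotypes did not overlap in any of the 3. Their log2 fold changes were 1.11 (SE 0.40) for Scin, 1.03 (SE 0.39) for Isl1 and 1.09 (SE 0.39) for Hoxb7. Isl1 and Hoxb7 stayed past both limits in only 1 of 6 leave-one-out fits, the one without WT/R264W replicate 1, and Scin in 2.

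Hoxb7 was the only one of 12 tested Hox genes with an unadjusted p under 0.05, and the median of the 12 was 0.00. Over all genes 1.11% had one in either direction without and 2.40% with the stage term. Of the 12, WT/R264W lay wholly above WT in 1 and wholly below in 1, against 2.26% and 3.04% of all genes. Of 6 tested members of the gelsolin family Scin alone had an unadjusted p under 0.05, with a median of 0.15. Ano3, of the anoctamin family of channels and scramblases, was read at 0.372, 0.246 and 0.388 CPM in WT and at 0.674, 0.946 and 0.797 CPM in WT/R264W testes. Ano3 had a log2 fold change of 1.24 (SE 0.38), and the 7 tested anoctamins had a median of -0.06. In 2 of the 7 every WT/R264W testis was above every WT testis. Rab39, a small GTPase of vesicle traffic, was at 0.296 to 0.922 CPM in WT and at 0.943 to 1.59 CPM in WT/R264W testes, with no overlap and a log2 fold change of 1.25 (SE 0.52). Its value ran from 1.0 to 1.96 when a library was left out, and it stayed past both limits in 1 of those 6 fits, the one without WT replicate 3.

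On the lower side stood an atypical receptor, a collagen and a T-box factor. Gpr182 encodes a receptor of endothelial cells that takes up chemokines. Gpr182 was read at 1.16, 1.38 and 0.873 CPM in WT and at 0.494, 0.445 and 0.372 CPM in WT/R264W testes, with no overlap. Its log2 fold change was -1.37 (SE 0.34, adjusted p = 1.0) without and -1.36 (SE 0.41, adjusted p = 0.999) with the stage term. It stayed past both limits whichever library was left out, at -1.53 to -1.18 without the stage term. The other 14 endothelial markers had no unadjusted p under 0.05, and the median of the list was -0.08. The summed level of the list was 62.7 to 73.4 CPM in WT and 56.4 to 68.9 CPM in WT/R264W testes.

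Tbx15, a T-box factor of skeletal and skin development, was read at 1.07, 0.591 and 0.679 CPM in WT and at 0.314, 0.111 and 0.212 CPM in WT/R264W testes. That is 12 to 23 counts against 2 to 7, with no overlap. Its log2 fold change was -1.83 (SE 0.51) without and -1.79 (SE 0.52) with the stage term. Without the stage term Tbx15 stayed past both limits whichever library was left out. With it, Tbx15 missed them only without WT replicate 1, at -1.59. Cnr2, the cannabinoid receptor of immune cells, was read at 1.72, 1.03 and 1.55 CPM in WT and at 0.539, 0.834 and 0.744 CPM in WT/R264W testes, with a log2 fold change of -1.03 (SE 0.34).

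Collagen chains build the fibrils and basement membranes around the tubules, and 33 of 42 tested chains had a log2 fold change below 0 without the stage term. The other 9 were above 0, and with the stage term 11 were, where 44.9% and 47.7% of all genes were above 0. Their median was -0.15 without and -0.13 with the stage term. Without the stage term 4 chains had an unadjusted p under 0.05, all on the lower side, and with it 5, against 1.11% and 2.40% of all genes in either direction. Col26a1 was read at 3.16, 2.02 and 2.62 CPM in WT and at 0.898, 1.33 and 1.27 CPM in WT/R264W testes. Col20a1 was read at 8.51 to 10.7 CPM in WT and at 4.94, 6.62 and 7.59 CPM in WT/R264W testes. Col16a1, a fibril-associated chain, was read at 62.1, 68.6 and 61.2 CPM in WT and at 51.4, 54.0 and 54.5 CPM in WT/R264W testes.

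None of these chains overlapped between the genotypes, nor did Col11a2, and WT/R264W was below in 3.04% of all genes. The log2 fold changes were -1.16 (SE 0.29) for Col26a1, -0.62 (SE 0.21) for Col20a1, -0.59 (SE 0.23) for Col11a2 and -0.27 (SE 0.09) for Col16a1. With the stage term Col20a1, Col16a1, Col26a1, Col2a1 and Col6a5 had an unadjusted p under 0.05, with -0.30 (SE 0.12) for the cartilage collagen Col2a1 and -0.58 (SE 0.24) for Col6a5. The summed level of the collagens, which abundant chains set, did not separate the genotypes, at 895 to 1540 CPM in WT and 857 to 1360 CPM in WT/R264W testes. Peritubular myoid cell genes had a median of 0.08, and their summed level was 306 to 467 CPM in WT and 306 to 473 CPM in WT/R264W testes.

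Ucp3, Alpk3 and Myh7b were past both limits on the lower side, and they are set side by side here after their values were seen. Ucp3, a mitochondrial carrier of muscle, was read at 1.16, 0.887 and 0.728 CPM in WT and at 0.359, 0.501 and 0.425 CPM in WT/R264W testes. Alpk3, a kinase of heart muscle, was read at 0.883, 0.542 and 0.728 CPM in WT and at 0.18, 0.445 and 0.266 CPM in WT/R264W testes. Myh7b, a myosin heavy chain, was read at 1.02, 1.13 and 1.70 CPM in WT and at 0.539, 0.334 and 0.797 CPM in WT/R264W testes. The genotypes did not overlap in the 3 genes, and the log2 fold changes were -1.11 (SE 0.36), -1.28 (SE 0.48) and -1.20 (SE 0.41). Of 12 skeletal muscle markers 4 were tested, and Casq1 alone, the calcium store protein, had an unadjusted p under 0.05, with the stage term, at -1.08 (SE 0.46). With that term 2.40% of all genes had one in either direction. Casq1 rested on WT replicate 1, with 2.28 CPM there and 0.159 to 0.834 CPM in the other libraries. The summed level of the list was 17.3 to 27.2 CPM in WT and 18.4 to 24.5 CPM in WT/R264W testes, and its part in these results was not tested.

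**Figure D4:**
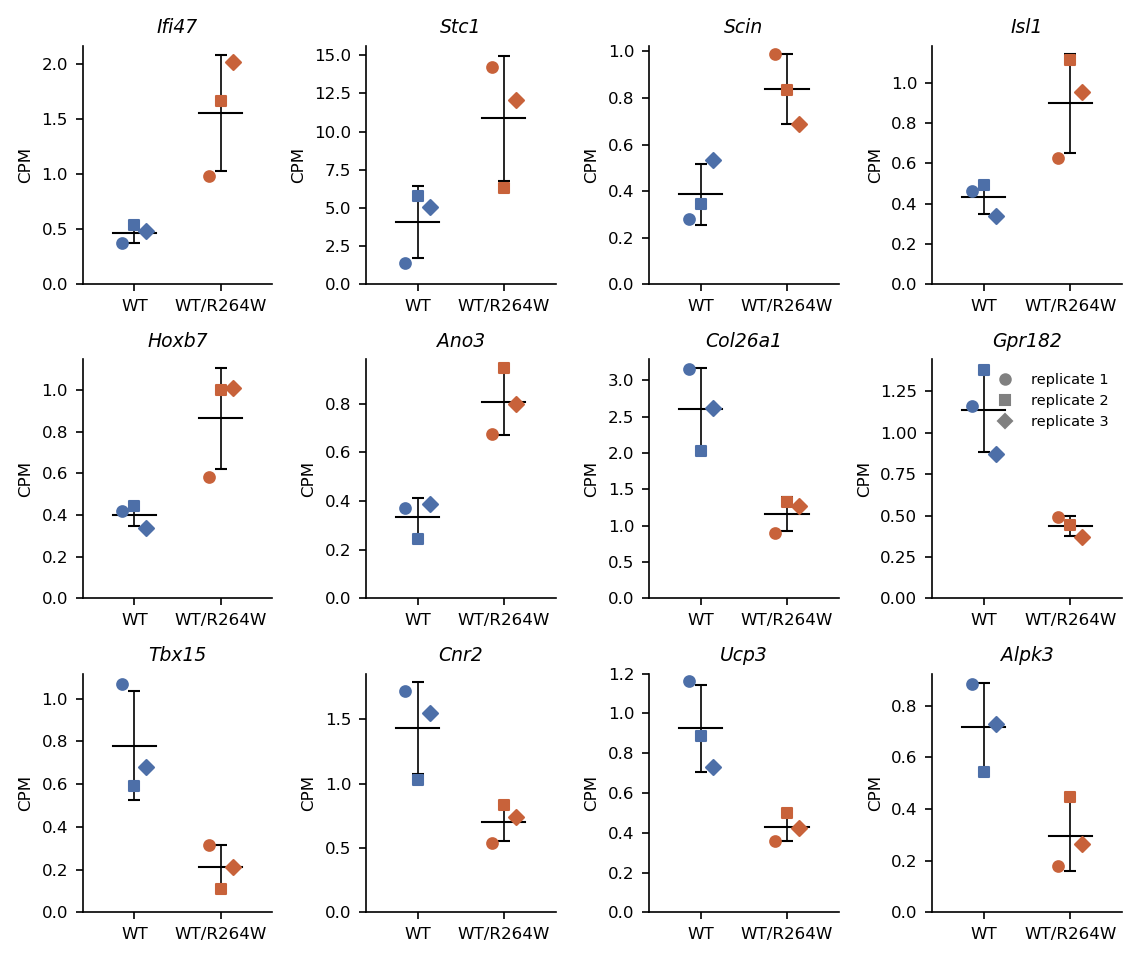
Level in CPM of 12 genes past an unadjusted p of 0.05 and 2-fold, 1 point per library shaped by replicate, with the mean and SD of each genotype. Ifi47, Stc1, Scin, Isl1, Hoxb7 and Ano3 are higher and Col26a1, Gpr182, Tbx15, Cnr2, Ucp3 and Alpk3 lower in WT/R264W testes, and no gene shown overlaps between the genotypes. The genes were picked by these limits, and for most the rule also required no overlap. The separation is therefore not an independent result.

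Further genes on the lower side in both fits with no overlap included Atp2c2, a calcium pump of secretory cells, Upp2, a uridine phosphorylase, St8sia6, a sialyltransferase, and Gldn, an adhesion protein of the node of Ranvier. Their log2 fold changes without the stage term were -1.08 (SE 0.35), -1.42 (SE 0.51), -1.40 (SE 0.47) and -1.37 (SE 0.50). Amd2 and Efcc1 had -1.02 and -1.18. Pcdhgb8 had -1.09, and as a first exon of the gamma protocadherin cluster it shares its constant exons with its neighbours in the cluster. Pcdhgb5 of the same cluster went the other way, at 0.99 (SE 0.56) without and 1.02 (SE 0.45) with the stage term. It was past both limits only with the stage term, and its genotypes overlapped.

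Several genes past the limits belong to families of near-identical copies, whose reads the counting could have split, and are uncertain. On chromosome 14 these were Gm3696, Gm3642, Gm8005 and Gm21560, each lower, with log2 fold changes of -1.01, -1.09, -1.39 and -1.04. Gm3696 was read at 1.86, 1.72 and 1.99 CPM in WT and at 1.08, 0.890 and 0.797 CPM in WT/R264W testes. On the Y chromosome Gm21650 had -1.85 (SE 0.59), and on chromosome 4 Gm13305 had -1.12 (SE 0.30). With the stage term other Y genes passed both limits in opposite directions, Gm20896 at -1.13 (SE 0.45) and Gm21409 at 1.76 (SE 0.68). Gm43951 on chromosome 11, which overlaps 4933427D14Rik on its strand, was read at 12.3, 15.9 and 7.86 CPM in WT and at 6.02, 4.0 and 5.47 CPM in WT/R264W testes, a log2 fold change of -1.22 (SE 0.30). Of the higher genes, Rps27rt resembles a ribosomal protein gene and had 1.54 (SE 0.50), while the 83 ribosomal protein genes tested had a median of 0.08 and none had an unadjusted p under 0.05. Gm14440 had 1.42 (SE 0.55) with genotypes that overlapped.

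Taking the stage into account altered the reading of genes that switch on late in the wave. Tex55, a sperm tail gene, was read at 12.9, 0 and 0 CPM in WT replicates 1, 2 and 3 and at 5.66, 0.612 and 0 CPM in WT/R264W replicates 1, 2 and 3. Cabs1, a calcium-binding protein of spermatids, was read at 39.0, 0.345 and 0 CPM in WT and at 19.8, 1.45 and 0 CPM in WT/R264W testes. Both genes followed the stage score, high in the first replicates and at 0 in the third. Tex55 had a log2 fold change of -1.04 (SE 2.11) without and 2.15 (SE 0.46) with the stage term, and Cabs1 had -0.90 (SE 2.23) and 1.16 (SE 0.46). Gm5901, at 4.42, 0 and 0 CPM in WT and 3.05, 0.667 and 0 CPM in WT/R264W, went from -0.24 (SE 1.84) to 2.07 (SE 0.53). The values at 0 lie under what 3 counts would give, 0.130 to 0.167 CPM.

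These values depend on a straight line through few libraries. For Cabs1 the value with the stage term was -3.12 without WT replicate 1 and -0.44 without WT/R264W replicate 1. When all 9 libraries and a squared term were used, it was -0.18 for Cabs1, -0.56 for Tex55 and -0.29 for Gm5901. The stage slopes are a description, since the score was made from the same libraries. Among genes with a mean of at least 10 CPM the steepest were Cabs1 (3.21 log2 units per unit of score), Prm2, a protamine (2.74), Tnp2, a transition protein (2.60), 4930407I10Rik (2.48) and Sppl2c, a spermatid protease (2.47). Prm2 was read at 59.5, 0.788 and 0.0970 CPM in WT and at 21.5, 1.78 and 0 CPM in WT/R264W testes, and its log2 fold change went from -1.38 (SE 2.18) to 0.21 (SE 0.39). Among the same genes the slopes were most negative for H2ac19, a histone gene (-1.13), Spp1, osteopontin (-0.39), and Ppp2r2c, a phosphatase subunit (-0.36). H2ac19 had 0 CPM in WT replicate 1 and 6.20 to 38.3 CPM in the other libraries of the fit. Outside the fit, R264W/R264W replicate 3, at a score of 5.54, had 21.7 CPM, so the H2ac19 slope is uncertain. Over all tested genes the slope was above 1 in 301 and below -0.5 in 19.

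**Figure D5:**
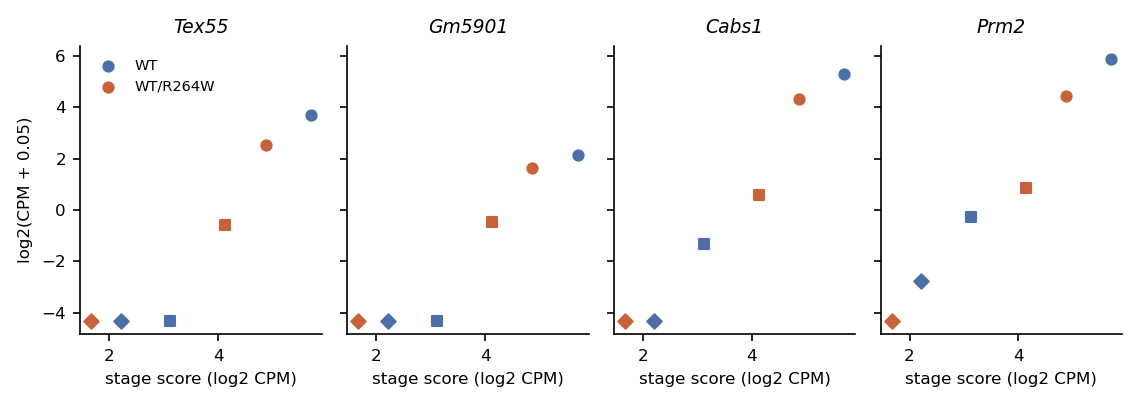
Level of 4 spermatid genes, as log2(CPM + 0.05), against the stage score of each library, coloured by genotype and shaped by replicate. Points at the bottom are libraries with 0 counts, and WT replicate 1, at a score of 5.70, is the highest in every panel.

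As lists, spermatid genes showed the same shift. All 19 tested round spermatid genes and all 11 elongating spermatid genes had log2 fold changes below 0 without the stage term, with medians of -0.29 and -0.56. With it the medians were 0.03 and 0.05, and 10 of 19 and 6 of 11 were above 0. The round spermatid list made the score itself. None of the spermatid genes had an unadjusted p under 0.05 in either fit. They follow the same stage, so their signs are not separate observations. Without WT replicate 1 the stage score difference was 0.89 in place of -0.12. In the fit without that library and without the stage term, Actl7b of the round list had 0.51 and Akap4 of the elongating list 1.59. Akap4, the main fibrous sheath protein of the sperm tail, was read at 382, 43.4 and 22.7 CPM in WT and at 188, 93.0 and 15.4 CPM in WT/R264W testes, and had -0.61 (SE 1.20) without and -0.04 (SE 0.10) with the stage term.

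In the lists of earlier germ cells 2 genes had an unadjusted p under 0.05, each in 1 fit only. These were Rec114 without and Sohlh2 with the stage term, where 1.11% and 2.40% of all genes had one in either direction. Of 12 tested genes of undifferentiated spermatogonia none had an unadjusted p under 0.05, and the median was 0.10. Zbtb16, which encodes PLZF, a factor of stem cell self-renewal, was read at 11.4, 14.5 and 13.5 CPM in WT and at 13.4, 13.5 and 14.3 CPM in WT/R264W testes, a log2 fold change of 0.06 (SE 0.14, adjusted p = 1.0). Lin28a, an RNA-binding protein of the same cells, was read at 8.41, 13.6 and 16.5 CPM in WT and at 15.9, 11.1 and 19.4 CPM in WT/R264W testes, with 0.26 (SE 0.30, adjusted p = 1.0). The genotypes overlapped in both. Of 11 genes of differentiating spermatogonia Sohlh2, a helix-loop-helix factor, had an unadjusted p under 0.05 with the stage term, at 0.32 (SE 0.14).

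Among 22 leptotene and zygotene genes, Rec114, which takes part in forming DNA breaks for recombination, was read at 2.09, 2.02 and 2.72 CPM in WT and at 3.32, 3.17 and 3.24 CPM in WT/R264W testes, with no overlap. It had 0.51 (SE 0.21, adjusted p = 1.0) without the stage term, and the median of the list was 0.06. The 18 pachytene and diplotene genes had a median of -0.10 and none had an unadjusted p under 0.05, with Ldhc, the testis lactate dehydrogenase, at -0.10 (SE 0.15).

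Piwil4 itself was read at 1.77, 1.67 and 1.6 CPM in WT and at 2.07, 1.11 and 2.12 CPM in WT/R264W testes. The WT/R264W testes lay on both sides of WT, and the log2 fold change was 0.07 (SE 0.30, adjusted p = 1.0) in the fit without the stage term. A point mutation need not alter a transcript level, so Piwil4 does not check the genotype labels here. Of 25 genes within 1 Mb of Piwil4 on chromosome 9, 21 were tested and none had an unadjusted p under 0.05, nor did any genotype groups separate. Their log2 fold changes ran from -0.31 to 0.21, with -0.15 for Amotl1 and -0.03 for 1700012B09Rik, the nearest tested gene on each side.

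The piRNA pathway makes and loads the guides of PIWI proteins. Of its 24 tested genes none had an unadjusted p under 0.05 in either fit, and the median was -0.08. Without the stage term 18 were below and 6 above 0, where 44.9% of all genes were above 0. Every WT/R264W testis was below every WT testis in 2 of the 24 and above in 0, against 3.04% and 2.26% of all genes. Log2 fold changes ran from -0.27 to 0.16, with -0.05 for Mael and 0.01 for Piwil2, the partner that makes PIWIL4's guides. Of 21 tested genes of transposon methylation and silencing none had an unadjusted p under 0.05 in either fit, and the median was -0.01. In 2 of the 21 every WT/R264W testis was below every WT testis, and in 0 above. In this list Dnmt3c, the methyltransferase of young transposons, had 0.40, and Dnmt3l, the cofactor of methylation in fetal germ cells, had -0.45, the ends of its range.

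The study follows Afm and Yipf7 in the homozygous testes, and in WT/R264W testes both overlapped with WT. Afm, afamin, was read at 2.23, 1.63 and 0.776 CPM in WT and at 1.80, 1.89 and 1.49 CPM in WT/R264W testes, a log2 fold change of 0.15 (SE 0.40, adjusted p = 1.0). Yipf7, a Golgi membrane protein, had 8, 5 and 0 counts in WT and 6, 6 and 8 counts in WT/R264W testes, too few to be tested.

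In the lists of Sertoli and Leydig cells no gene had an unadjusted p under 0.05 without the stage term. All 18 Sertoli cell genes had a log2 fold change above 0, against 44.9% of all genes, but the median was 0.15 and the summed level overlapped, at 1980 to 2680 CPM in WT and 2400 to 3070 CPM in WT/R264W testes. Inhbb, the beta B subunit of inhibin and activin, was the Sertoli cell gene with an unadjusted p under 0.05 with the stage term, at 0.34 (SE 0.14). Of the Leydig cell genes Hsd3b1, a steroid dehydrogenase, had one with the stage term, at 0.32 (SE 0.12). The 13 protein genes of mitochondrial DNA had log2 fold changes of 0.03 to 0.20 with a median of 0.15, and none had an unadjusted p under 0.05. Of the 5 tested blood genes all were below 0 with a median of -0.30, and their summed level was 131 to 363 CPM in WT and 103 to 227 CPM in WT/R264W testes. Lists for adipose tissue, epididymis, retinoic acid and apoptosis of the first wave had medians of -0.20, -0.42, 0.02 and 0.02 and no gene with an unadjusted p under 0.05 in either fit.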

How the data were processed

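The authors deposited a table with an estimated count and an FPKM value per gene and testis. Per the submitters' processing notes, reads were handled with fastp (version 0.18.0), StringTie (version 1.3.1) and DESeq2 on build mm39. The aligner, the annotation release, the counting tool and its strand setting are not given in the sources used here. Of the estimated counts 89.17% were whole, and they were rounded before use. The FPKM values the authors deposited were used only for an alternative test with limma.

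Groups came from the sample labels. Genes were kept by edgeR's filterByExpr, libraries were scaled by TMM, and CPM values use these scaled sizes. In R (version 4.3.3), edgeR (version 4.0.16) quasi-likelihood tests compared WT/R264W with WT, two-sided, with Benjamini-Hochberg adjustment over all 15413 genes, without and with the stage score. The score is the mean log2 CPM of the round spermatid list with a prior count of 1. Alternatives used DESeq2 (version 1.42.0) and limma (version 3.58.1). The limma tests kept genes with a mean of at least 0.5 FPKM in place of filterByExpr, so they cover another set of genes. The fits were tested on simulated data.

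Named genes were the 5 genes the study follows, up to 10 in each direction per fit with the smallest p past an unadjusted p of 0.05 and 2-fold (without the stage term also with no overlap), genes past both limits in both fits, list members with an unadjusted p under 0.05 or else the most abundant member, the 5 steepest slopes in each direction, and the nearest neighbours of Piwil4. Other genes named are members of a described list, singled out for their role or after their values were seen. The members and lists were chosen with earlier results of these data known. Symbols absent for 76 genes were taken from the GENCODE annotation of GRCm38 for 75. Gene overlaps and neighbours come from that annotation, and no coordinates of genes are given because the builds differ. Intervals and floors of counts cover counting error only. Some results are not reported here.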

Additional observations from a re-analysis of the deposited data

How the results depend on the processing

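The counts past both limits moved with most settings (higher and lower genes in WT/R264W, then with the stage term). They were 5 and 15 with DESeq2 without the stage term and 13 and 16 with it. With limma on log2(FPKM + 0.1) they were 10 and 5, then 17 and 9, and with log2(FPKM + 1) 1 and 0 in both. With no filter they were 44 and 77, then 66 and 77, and with at least 10 counts in every library 4 and 13, then 5 and 14. All 9 libraries gave 17 and 35, then 28 and 48, and with a squared stage term 22 and 60. A score that added pachytene genes gave 87 and 28. Leaving out each library in turn gave 11 to 25 higher and 23 to 42 lower genes without the stage term, and 17 to 96 higher and 39 to 82 lower with it, most higher genes without WT replicate 2 and most lower genes without WT/R264W replicate 2. The labels do not say whether same-numbered testes are paired, and the main fits treat them as unpaired. Deviations of same-numbered testes correlated at 0.679, -0.153 and 0.787. Replicate 1 was the most and replicate 3 the least advanced in both genotypes, so these correlations cannot decide whether testes were paired. With the replicate block the counts were 10 and 28, then 40 and 55, and 21 genes had an adjusted p under 0.05 with the stage term, in a fit with 1 residual degree of freedom. These include Stc1, Cd74, Gm43951, Gm13305 and Gm14440. Without the block, adjusted p values under 0.05 appeared only with the stage term, for 4 genes with no filter (Gm45837, Galnt2l, Gm49361 and Fam220a) and for 0 to 1 gene when a library was left out (Gm45837 or Fam220a). Gm45837 had 0, 111 and 111 counts in WT and 0 in each WT/R264W testis. The stage score difference kept within 1 SD under every alternative, at -0.85 to 0.89 when a library was left out. Among named genes, leaving out each library in turn turned the sign of some spermatid genes. Without the stage term Gm5901 ran from -2.15 to 7.67, Tex55 from -3.81 to 8.42, Cabs1 from -4.19 to 5.33, Prm2 from -4.51 to 4.13, Tnp2 from -4.73 to 4.2 and Akap4 from -1.47 to 1.59, each highest without WT replicate 1. With the stage term, Cabs1 ran from -3.12 to 2.94, Prm2 from -3.50 to 1.15, Tnp2 from -1.85 to 0.62, 4930407I10Rik from -2.61 to 0.91 and Sppl2c from -3.40 to 1.53, negative without WT replicate 1 and without WT/R264W replicate 1. The sign also turned with the squared term for Tex55 (-0.56), Gm5901 (-0.29) and Cabs1 (-0.18), on log2(FPKM + 1) for Tex55 (-0.04), and with the pachytene genes in the score for Actl7b (0.19) and Akap4 (0.56). The cause was not tested. Of the other values for named genes under alternatives, 940 without and 1200 with the stage term stayed on their side of the threshold, 62 and 76 of them with the opposite sign and passing in neither fit, and 179 and 158 kept the direction but no longer passed an unadjusted p of 0.05. Many named genes rest on few counts (8 to 38 a library for Ifi47), which limits the precision of their fold changes.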
